A study of Saccharomyces cerevisiae with 4 samples.

Results

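The genes described here encode RNA polymerase II and the factors that act with it during initiation and elongation in *S. cerevisiae*. They were chosen by name, as a list of 42 genes of this machinery, out of 5449 yeast genes with a probe set on the array. All 42 were matched, each by 1 probe set. The cells were the laboratory strain W303-1A, of mating type a, and every culture carried the *ura3-1*, *trp1-1* and *ade2-1* alleles, *can1-100*, *leu2-3, 112* and *his3-11,15*. WT cells (1 array) held the empty plasmid pCM189, and RECQL5 cells (3 arrays, RECQL5 1, 2 and 3) held the same plasmid with FLAG-tagged human *RECQL5* behind a tet promoter, which is active without doxycycline. The plasmid name is that of the sample labels, and the study's figure legends name a different plasmid for its tet constructs. The source labels of RECQL5 2 and 3 name tetp::RECQL6 and tetp::RECQL7, while their titles and strain labels give RECQL5. All cultures were in mid-log growth in medium with 2% glucose and without uracil. Total RNA was measured on Affymetrix yeast arrays, 1 sample each, and the values are log2 levels from RMA, a procedure that corrects background, equalizes the arrays and combines the probes of a probe set.

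RNA polymerase II makes the messenger RNAs of the cell. General factors (TBP, TFIIA, TFIIB, TFIIE, TFIIF and TFIIH) load it at promoters, kinases and phosphatases then act on the repeated C-terminal domain (CTD) of its largest subunit, and elongation factors such as TFIIS, Spt4-Spt5, the Paf1 complex and the histone chaperone FACT travel with it along the gene. Human RECQL5 is a DNA helicase of the RecQ family that binds this polymerase and is known from human work to compete with TFIIS for it. The comparison of RECQL5 with WT asks whether the transcripts that encode the polymerase and its partners change when the helicase is expressed.

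Most of this machinery kept transcript levels close to those of WT. A gene was tested where its mean over the 4 arrays reached log2(600), after the minimum level of 600 that the study set, and 40 of the 42 genes did so, all of them on every array. A gene was called where limma gave 1.5-fold or more with an adjusted p no higher than 0.1. Of the 40 genes, 2 rose, *FCP1* and *RPB8*, and 0 fell (5.0% in all), beside 17.4% of the 4128 genes tested, of which 9.59% rose and 7.8% fell. By adjusted p alone, with no fold threshold, 10 of the 40 were higher and 5 lower in RECQL5 (25.0% and 12.5%), against 34.6% and 29.2% of all tested genes, so that 37.5% of the 40 passed the adjusted p in either direction beside 63.8% of all. The median size of the change, without its sign, was 0.13 on the log2 scale for the 40 genes and 0.27 for all tested genes, and the signed medians were 0.04 and 0.02. The 95% interval of the change lay wholly within 1.5-fold in both directions for 36 of the 40 genes (90.0%), against 64.3% of all tested genes. The exceptions were *FCP1*, *RPB8*, *RPO26* and *RPB10*.

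**Figure D1:**
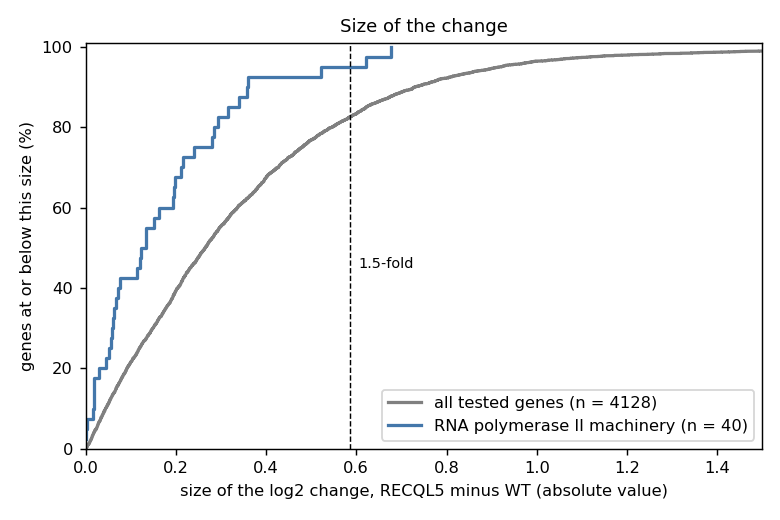
Cumulative share of genes (%, y axis) by the size of the log2 change between RECQL5 and WT without its sign (x axis, shown to 1.5), for the 40 tested genes of the RNA polymerase II machinery (blue) and all 4128 tested genes (grey). The blue line runs above the grey one, with medians of 0.13 and 0.27, and the dashed line marks 1.5-fold.

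WT has no replicate. Each test weighed the gap between the lone WT value and the RECQL5 mean by the spread among the RECQL5 arrays. That spread was moderated towards a value estimated over all tested genes. A difference particular to the WT culture cannot be told apart from one between the groups. An exact permutation of 3 arrays against 1 could not go below p = 0.25. The study states that the control array was standardized with published arrays, and the sources used here do not say if the deposited WT values already hold that step. As for the cells, 5 of 5 marker genes of a cells (*MFA1*, *MFA2*, *STE2*, *STE6* and *BAR1*) passed the level filter. In contrast, 0 of 3 markers of alpha cells and 0 of 4 meiotic genes did. The study set its minimum level at the median of meiotic genes that were not expressed in its experiments. The result for meiotic genes is therefore partly built into the filter, and cannot serve as a separate check of the cells. Of the a-cell markers *MFA1* fell by 0.63 on the log2 scale, *MFA2* was lower by adjusted p alone (-0.27), *STE6* was higher by adjusted p alone (0.55), and *STE2* (0.15) and *BAR1* (0.28) did not pass. The meiotic gene *SPO11* read 9.90 in WT and 7.85 to 8.87 in RECQL5, whose part in the results was not tested. Fewer cells that express a gene and less of its RNA per cell cannot be told apart in RNA from whole cultures. Across tested genes, Pearson's r was 0.989 to 0.996 between RECQL5 arrays and 0.917 to 0.931 between WT and a RECQL5 array. The SD of the differences from WT was 0.23 to 0.24 over the 40 genes and 0.46 to 0.50 over all tested genes.

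*RPO21* (YDL140C) encodes Rpb1, the largest subunit, which carries the CTD and part of the active site. Its log2 level was 11.43 in WT and 11.36, 11.45 and 11.42 in RECQL5. The WT value lay inside the RECQL5 range, and the change was -0.02 ± 0.07 (SE; 95% interval -0.19 to 0.15; adjusted p = 0.85, limma). *RPB2*, the gene of the second-largest subunit, read 11.58 in WT and 11.62, 11.62 and 11.68 in RECQL5, a change of 0.06 ± 0.06 (adjusted p = 0.46, limma). For the genes of both large subunits the 95% interval held 0 and lay within 1.5-fold.

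Among the smaller subunits that belong to RNA polymerase II alone, *RPB3* and *RPB7* were higher by adjusted p alone. *RPB3* and *RPB11* encode a pair of subunits on which the enzyme is assembled. *RPB3* (10.96 in WT; 11.14, 11.15 and 11.23 in RECQL5) was higher by adjusted p alone, at 0.21 ± 0.07 (adjusted p = 0.048, limma), and *RPB11* differed by 0.12 ± 0.07 (adjusted p = 0.18). *RPB4* and *RPB7* encode the stalk, a module that can leave the enzyme. *RPB7* read 11.00 in WT and 11.11, 11.30 and 11.30 in RECQL5 (0.24 ± 0.10, adjusted p = 0.080), whereas the WT value of *RPB4* lay inside the RECQL5 range (0.02 ± 0.07, adjusted p = 0.84). *RPB9*, whose product takes part in TFIIS-stimulated cleavage of the transcript and in fidelity, differed by 0.19 ± 0.12 (adjusted p = 0.22), and its RECQL5 arrays spread from 10.15 to 10.43. Of the 7 genes of RNA polymerase II alone, 0 passed 1.5-fold and 2 (28.6%) were higher by adjusted p, beside 34.6% of all tested genes, and the median change was 0.12. The differences of *RPB3* and *RPB7* did not pass the adjusted p without RECQL5 replicate 2 (up to 0.104 and 0.176), and that of *RPB7* did not with no filter on level or after cyclic loess normalization either.

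The 4 listed subunits that are built into all 3 nuclear polymerases stood higher. *RPB8* (YOR224C) read 12.08 in WT and 12.69, 12.69 and 12.71 in RECQL5. The RECQL5 values lay within 0.03 of each other, the nearest 0.61 above WT, and the gene rose by 0.62 ± 0.06 (1.54-fold; adjusted p = 0.0013, limma). *RPO26* (YPR187W), the gene of the subunit known as Rpb6, read 12.22 in WT and 12.71, 12.73 and 12.78 in RECQL5, a difference of 0.52 ± 0.06 (1.44-fold, adjusted p = 0.0024), which is under the fold threshold. *RPB10* (11.85 in WT; 12.08, 12.26 and 12.29 in RECQL5) differed by 0.36 ± 0.10 (adjusted p = 0.029) and *RPB5* (11.67; 11.98, 11.96 and 11.95) by 0.29 ± 0.06 (adjusted p = 0.011). All 4 were higher by adjusted p, beside 34.6% of all tested genes, and their median change was 0.44. A further shared subunit gene, *RPC10* (Rpb12), which is on a second list of further factors, differed by 0.41 ± 0.07 (adjusted p = 0.0057).

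Set beside the other polymerases, the shared subunits lay between the subunits of RNA polymerase II alone and those of RNA polymerases I and III, the enzymes that make ribosomal RNA precursors, transfer RNAs and 5S RNA. Changes ran from -0.02 to 0.24 for the 7 genes of RNA polymerase II alone, from 0.29 to 0.62 for the 4 listed shared genes, and from 0.29 to 0.97 for 18 tested genes of polymerases I and III (median 0.76). Of the latter 12 rose (66.7%) and 0 fell, beside 9.59% and 7.8% of all tested genes, and 11 of 16 rose where every array had to reach the filter level. On each array the order of the group means was the same, with 0.06, 0.13 and 0.17 above WT for polymerase II alone, 0.41, 0.45 and 0.48 for the shared subunits, and 0.66, 0.73 and 0.68 for polymerases I and III (RECQL5 1, 2 and 3). Each mean is taken against the same WT array, so a deviation of that array would enter all 3. The repeated order shows only that the RECQL5 arrays read alike. These groups are described, not tested against each other. The genes of polymerases I and III that rose were *RPA190* (0.97), *RPA43* (0.97), *RPA135* (0.89), *RPA12* (0.88), *RPA34* (0.85) and *RPA49* (0.73) of polymerase I, *RPC82* (0.91), *RPC34* (0.91), *RPC53* (0.78), *RET1* (0.78) and *RPC31* (0.74) of polymerase III, and *RPC40* (0.65), which both enzymes use. *RPC34* (9.06) and *RPC25* (8.90) read below the filter level in WT and were tested through their RECQL5 values. *RPO31*, of polymerase III, was called as well without RECQL5 replicate 1 or 3.

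**Figure D2:**
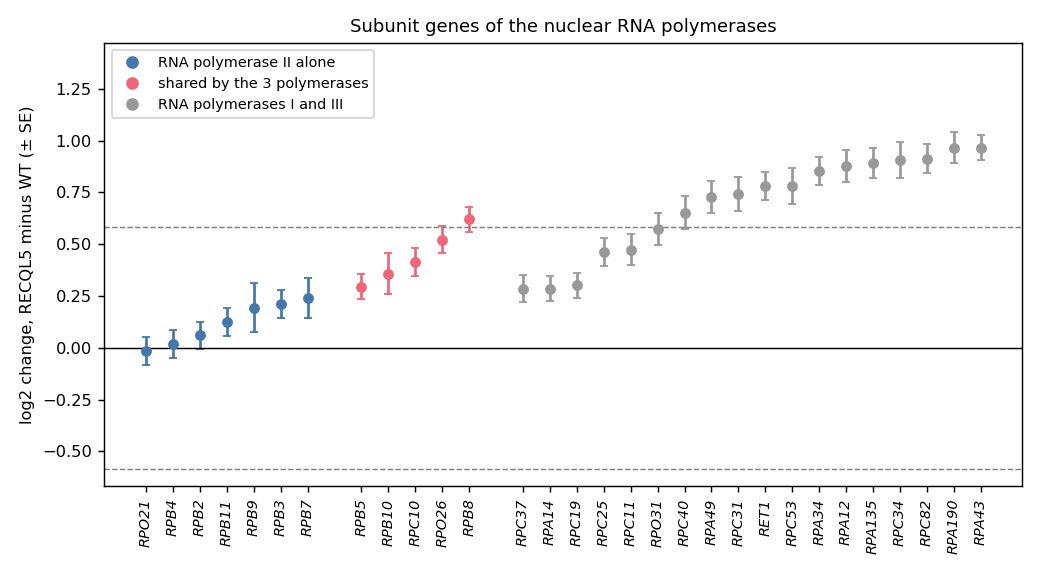
Log2 change between RECQL5 and WT (y axis, points ± SE of the fit) for subunit genes of RNA polymerase II alone (blue), subunits shared by the 3 polymerases including *RPC10* (red), and subunits of polymerases I and III (grey). Dashed lines mark 1.5-fold, and every blue point lies below every red one.

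The general initiation factors went in both directions, with a median change of 0.00 over 9 genes. Of these 0 were called, beside 17.4% of all tested genes. *SPT15* encodes TBP, the TATA-binding protein that all 3 polymerases need, and read 12.02 in WT and 12.04, 12.10 and 12.09 in RECQL5 (0.06 ± 0.06, adjusted p = 0.44, limma). *SUA7* (YPR086W), the TFIIB gene, read 11.68 in WT and 11.37, 11.41 and 11.42 in RECQL5. All RECQL5 values lay below WT, and the difference was -0.28 ± 0.06 (adjusted p = 0.014), in size 1.22-fold.

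Partner subunits of 1 factor did not always read alike. TFIIE, which recruits TFIIH, is made of the products of *TFA1* and *TFA2*. *TFA2* (YKR062W) had the lowest change of the 40 genes, with 10.23 in WT and 9.83, 9.92 and 9.87 in RECQL5 (-0.36 ± 0.07, adjusted p = 0.00765, limma). *TFA1* read 10.92 in WT and 11.09, 10.96 and 11.05 in RECQL5 (0.11 ± 0.08, adjusted p = 0.25). Their 95% intervals, -0.53 to -0.19 and -0.08 to 0.30, did not overlap. For TFIIF, which keeps the polymerase in the initiation complex, *TFG1* was higher by adjusted p alone (10.55 in WT; 10.88, 10.82 and 10.88 in RECQL5; 0.32 ± 0.06, adjusted p = 0.011) and *TFG2* differed by -0.07 ± 0.06 (adjusted p = 0.38). Their intervals, 0.15 to 0.48 and -0.23 to 0.09, did not overlap either, while the difference between partner genes was itself not tested. *TAF14*, whose product is found in TFIIF and in several chromatin complexes, had a change of 0.00 ± 0.06 (adjusted p = 0.99). The TFIIA genes *TOA1* (0.13 ± 0.08) and *TOA2* (-0.07 ± 0.08) had overlapping intervals and adjusted p values of 0.225 and 0.54.

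**Figure D3:**
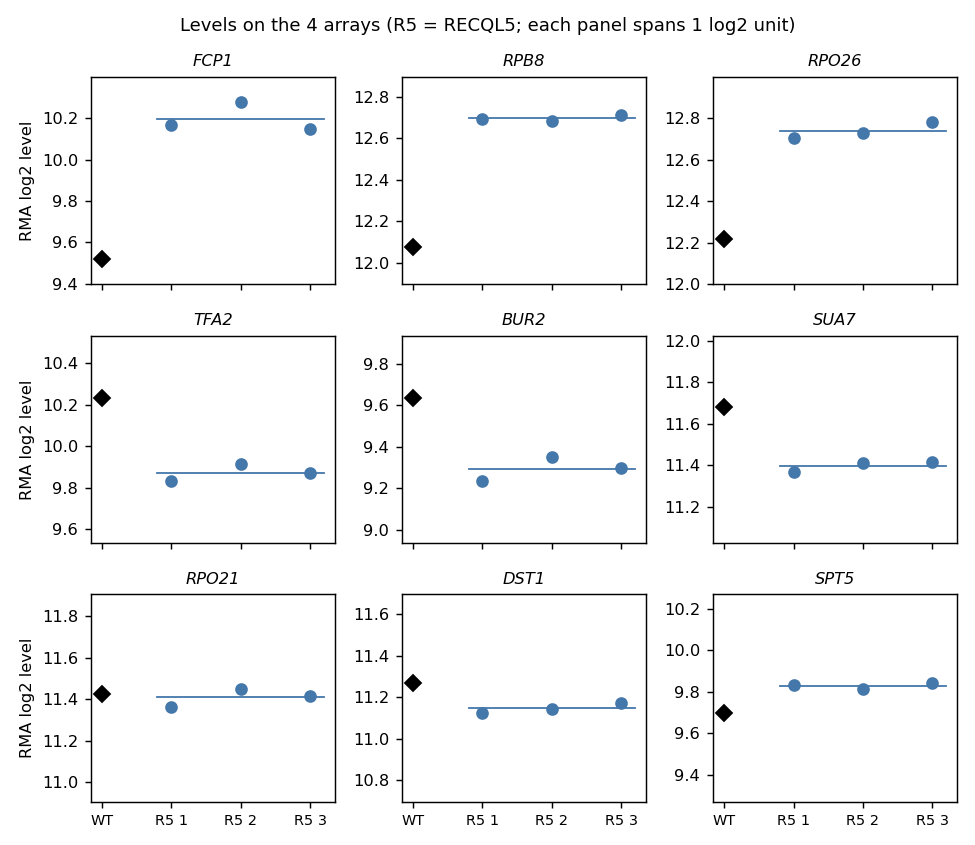
RMA log2 level (y axis) on the WT array (diamond) and the 3 RECQL5 arrays (circles, with their mean as a line) for the 3 genes with the highest change (*FCP1*, *RPB8*, *RPO26*), the 3 with the lowest (*TFA2*, *BUR2*, *SUA7*), and *RPO21*, *DST1* and *SPT5*. Each panel spans 1 log2 unit, and the RECQL5 arrays lie clear of WT in the upper and middle rows, while WT lies inside their range for *RPO21*.

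Among the 7 tested genes for enzymes of the CTD, 1 rose (14.3%), that of the phosphatase, beside 9.59% of all tested genes. *FCP1* (YMR277W) encodes the phosphatase that removes phosphates from the CTD and so allows the polymerase to be used again. It read 9.52 in WT and 10.17, 10.28 and 10.15 in RECQL5. The RECQL5 values lay within 0.13 of each other, the nearest 0.63 above WT, and the rise of 0.68 ± 0.08 (1.60-fold; adjusted p = 0.0019, limma) was the highest of the 40 genes. It kept its call in all 11 alternatives, with changes of 0.63 to 0.70, as did *RPB8*, with changes of 0.59 to 0.63. Only rescaling or leaving out a RECQL5 array altered these changes. The lowest change of *RPB8* was 0.592, close to the 1.5-fold threshold of 0.585. The 95% intervals of the rise, 0.48 to 0.87 for *FCP1* and 0.47 to 0.77 for *RPB8*, reached below that threshold.

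Of the 6 tested genes of the CTD kinases, *TFB3* and *BUR2* were lower and *CTK2* higher by adjusted p alone. On that measure 29.2% of all tested genes were lower and 34.6% higher. Kin28, with its cyclin Ccl1 and the assembly factor Tfb3, is the kinase module of TFIIH and acts at promoters. *KIN28* read 9.55 in WT and 9.36, 9.48 and 9.36 in RECQL5 (-0.15 ± 0.08, adjusted p = 0.15, limma), and *TFB3* read 9.96 and then 9.80, 9.79 and 9.81 (-0.16 ± 0.06, adjusted p = 0.065). *TFB3* did not pass without RECQL5 replicate 1 or without replicate 2, and *KIN28* passed as lower after cyclic loess. *CCL1* (mean level 9.12) and *CTK1* (9.16) were the 2 genes under the filter level and were not tested. They read 9.15 and 9.12 in WT and 9.06 to 9.13 and 9.12 to 9.26 in RECQL5. The tested genes closest to the filter were *BUR2* (mean level 9.38), *CTR9* and *KIN28* (9.44 each).

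Bur1-Bur2 and CTDK-I are the kinases of elongating polymerase. *BUR2* (YLR226W), the Bur1 cyclin gene, read 9.64 in WT and 9.234, 9.35 and 9.30 in RECQL5, and was lower by adjusted p alone (-0.34 ± 0.07, adjusted p = 0.012, limma). *SGV1*, the gene of the Bur1 kinase itself, differed by -0.06 ± 0.07 (adjusted p = 0.50), with an interval (-0.23 to 0.11) that overlaps that of *BUR2* (-0.52 to -0.16). In CTDK-I, which phosphorylates serine of the CTD during elongation, the cyclin gene *CTK2* was higher by adjusted p alone (9.38 in WT; 9.61, 9.57 and 9.62 in RECQL5; 0.22 ± 0.06, adjusted p = 0.032), and *CTK3* differed by -0.03 ± 0.07 (adjusted p = 0.76).

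Most other TFIIH genes had changes above 0. Of the 8 other TFIIH genes, taken from the list of further factors, the helicase gene *RAD3* rose (9.66 in WT; 10.37, 10.33 and 10.34 in RECQL5; 0.69 ± 0.06, adjusted p = 0.0011, limma). *TFB1* (0.51), *TFB2* (0.50), *SSL2* (0.29), *TFB4* (0.26) and *TFB5* (0.23) were higher by adjusted p alone, *SSL1* differed by -0.15 ± 0.06 (adjusted p = 0.10) and *TFB6* was lower by adjusted p alone (-0.32 ± 0.12, adjusted p = 0.071). *TFB4* and *TFB5* did not pass without RECQL5 replicate 1 (adjusted p = 0.111 and 0.114) or replicate 2 (0.113 and 0.134), nor *TFB6* without replicate 2 (0.113). *SSL1* passed as lower after cyclic loess, after median centring and where every array had to reach the filter level. Rad3 and the core of TFIIH also work in nucleotide excision repair. The median change was 0.28 for these 8 genes, while *KIN28* and *TFB3* stood at -0.15 and -0.16, and the groups were not tested against each other.

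**Figure D4:**
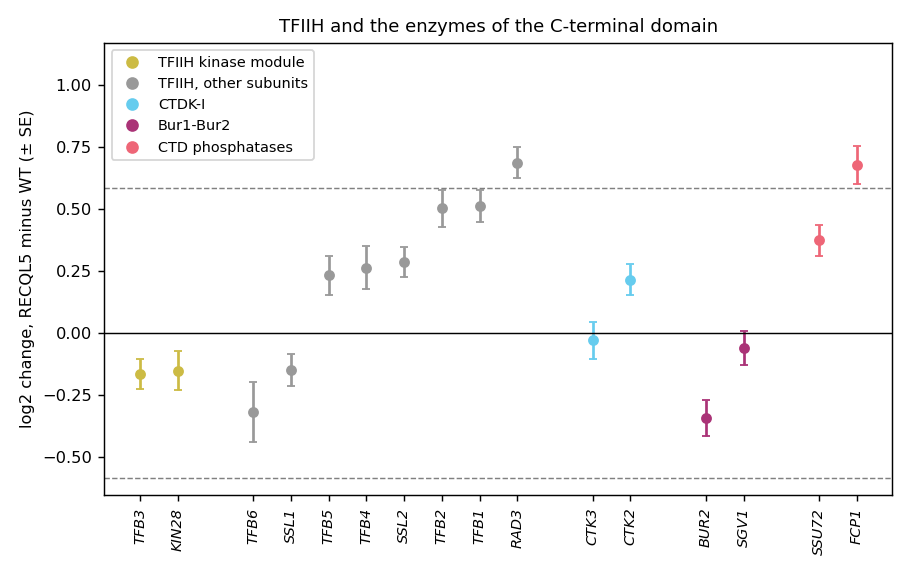
Log2 change between RECQL5 and WT (y axis, points ± SE of the fit) for the tested genes of the TFIIH kinase module, the other TFIIH subunits, the CTD kinase complexes CTDK-I and Bur1-Bur2, and the CTD phosphatases Fcp1 and Ssu72. *RAD3* and *FCP1* lie above the dashed 1.5-fold line, and *KIN28*, *TFB3*, *SSL1*, *TFB6*, *CTK3*, *SGV1* and *BUR2* lie below 0.

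The elongation factors proper stayed near WT. *DST1* (YGL043W) encodes TFIIS, which lets a stalled polymerase cut its transcript and resume. It read 11.27 in WT and 11.12, 11.14 and 11.17 in RECQL5. All RECQL5 values lay below WT, the nearest by 0.09. The difference of -0.12 had a 95% interval of -0.28 to 0.04, within 1.5-fold in both directions (adjusted p = 0.15, limma, and 0.091 after cyclic loess). That interval assumes that the lone WT array varies like the RECQL5 arrays, so it cannot exclude a larger change between the groups. *SPT5* (YML010W) and *SPT4* encode a pair of factors that clamp the polymerase on DNA. *SPT5* read 9.70 in WT and 9.83, 9.81 and 9.84 in RECQL5 (0.13 ± 0.06, interval -0.02 to 0.28, adjusted p = 0.11), and *SPT4* differed by -0.05 ± 0.07 (adjusted p = 0.63). The histone chaperone gene *SPT6* (0.00 ± 0.09), the gene of its partner *SPN1* (0.06 ± 0.07) and the elongation factor gene *ELF1* (0.02 ± 0.08) had adjusted p values of 0.54 to 0.99. Of these 6 genes, 0 passed the adjusted p, beside 63.8% of all tested genes.

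The Paf1 complex links the polymerase to histone modification. *CDC73*, 1 of its 5 genes, was lower by adjusted p alone (10.60 in WT; 10.41, 10.42 and 10.40 in RECQL5; -0.20 ± 0.06, adjusted p = 0.039, limma), and not without RECQL5 replicate 2. *PAF1* (-0.08 ± 0.08), *LEO1* (-0.02 ± 0.08) and *RTF1* (0.00 ± 0.07) had WT values inside the RECQL5 range. *CTR9* read 9.29 in WT and 9.33, 9.46 and 9.67 in RECQL5 (0.20 ± 0.13, adjusted p = 0.25), and its SD of 0.17 over the RECQL5 arrays was the largest of the 40 genes. For FACT, *POB3* was higher by adjusted p alone (11.29 in WT; 11.54, 11.56 and 11.62 in RECQL5; 0.28 ± 0.07, adjusted p = 0.018), and *SPT16*, the gene of the larger subunit, overlapped with WT (11.26; 11.19, 11.36 and 11.39; 0.05 ± 0.10, adjusted p = 0.68). The intervals of *SPT16* and *POB3* overlapped.

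**Figure D5:**
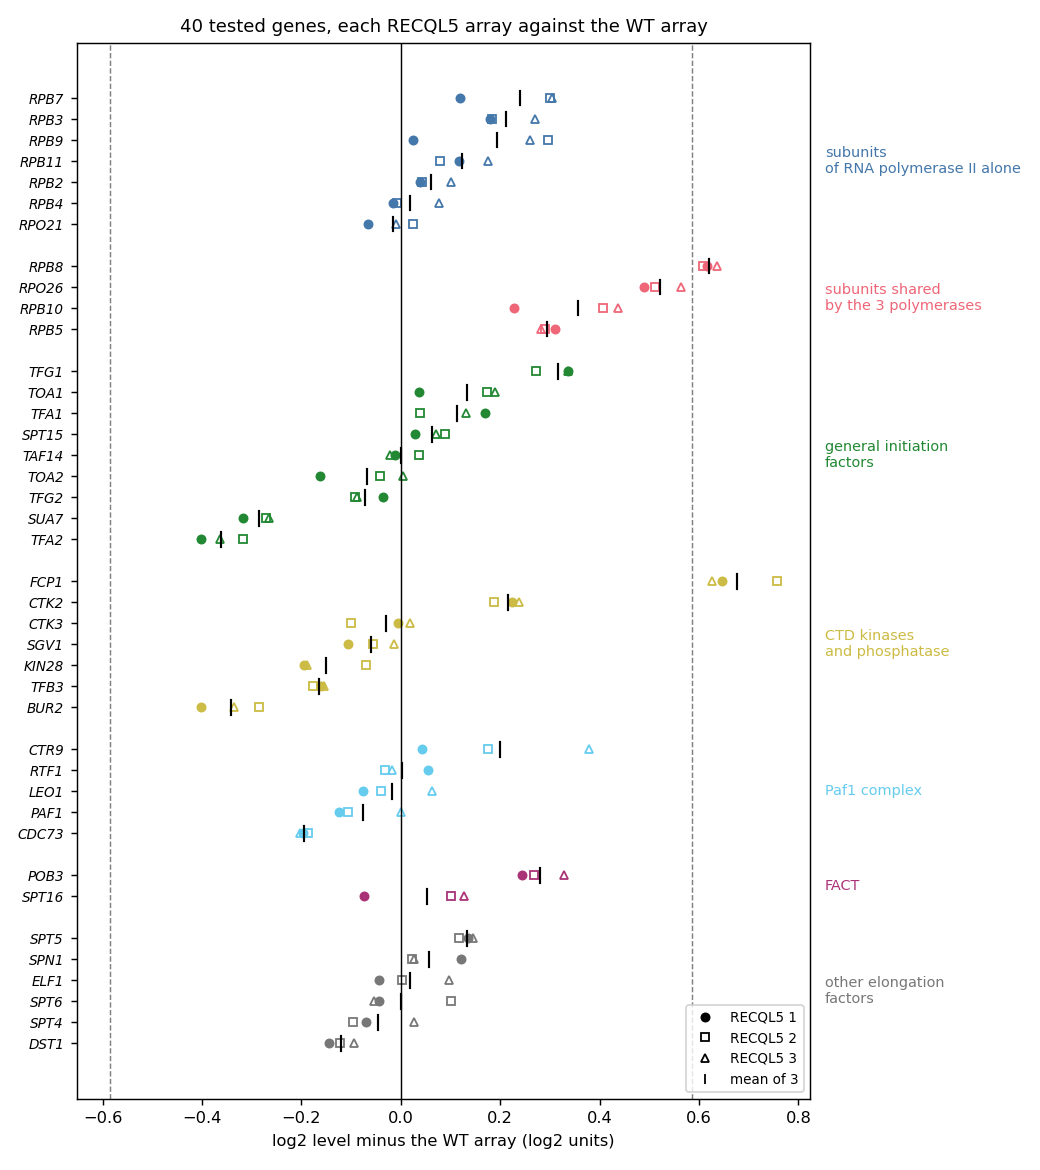
Log2 level of each RECQL5 array minus the WT array (x axis) for the 40 tested genes, grouped by role and ordered by mean change. Symbols are the 3 RECQL5 arrays and the vertical tick is their mean, and only *FCP1* and *RPB8* have a mean beyond the dashed 1.5-fold lines.

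Counted by array, 19 of the 40 genes (47.5%) had the WT array below all 3 RECQL5 arrays, 9 (22.5%) had it above all of them and 12 (30.0%) had it inside the RECQL5 range. Among all tested genes the shares were 45.5%, 40.6% and 13.9%, so WT was outside the RECQL5 range for 86.1% of them and for 28 of the 40 genes. Overlap was seen in 3 of 5 genes of the Paf1 complex, 3 of 6 other elongation factors and 0 of the 4 shared subunits.

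A second list of genes, named here as further factors, was looked at beside the 42 genes. Of 27 matched genes on the list of further factors (*RPC10*, the rest of TFIIH, the regulators of TBP, CTD phosphatases, assembly and import factors of the polymerase, and Elongator), 26 were tested, and 6 rose (23.1%) and 0 fell, beside 9.59% and 7.8% of all tested genes. By adjusted p alone 18 of the 26 were higher and 2 lower, beside 34.6% and 29.2% of all tested genes. The median change was 0.28, beside 0.02 over all tested genes. *MOT1*, whose product removes TBP from DNA, rose by 0.95 ± 0.10 (10.16 in WT; 11.04, 11.03 and 11.23 in RECQL5). *RTP1* (1.25) and *GPN2* (0.62), genes of polymerase assembly and nuclear import, and the Elongator genes *ELP2* (0.75) and *ELP3* (0.63) rose as did *RAD3*. *RTP1* read 8.63 in WT, below the filter level, and was not tested where every array had to reach it. After cyclic loess, *GPN2* and *ELP3* were not called, and *IWR1*, an import factor gene at -0.56 before it, was called as lower. *GPN2* was also not called without RECQL5 replicate 3. The CTD phosphatase gene *RTR1* was under the filter level (and called as lower with no filter), and read 9.229 in WT and 8.12, 8.33 and 8.12 in RECQL5. The list was drawn up with earlier results of these data known, so its counts are a description.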

How the data were processed

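Per the labels and the study's methods, total RNA was hybridised to Affymetrix GeneChip Yeast Genome 2.0 arrays. The authors normalized the arrays by RMA and deposited the log2 values of every probe set. RMA and limma stand in the submitters' processing notes, and no version of either was found in the sources used here. The number of arrays limits the precision.

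Probe sets (10928 in the table) were named through the array's probe table and the R64 gene table, which gave 5449 genes, and the brightest probe set on average stood for a gene with several. RECQL5 was compared with WT in limma 3.58.1 (R 4.3.3; lmFit and eBayes, two-sided), over the 4128 genes with a mean of at least log2(600), with Benjamini-Hochberg adjustment over all of them. Values after ± are SE of the fit, which has 2 residual degrees of freedom. The fit assumes that the lone WT array varies like the RECQL5 arrays. The test, the minimum level and the thresholds are those of the study's array methods. The study states that it standardized its control with published arrays, and no such arrays were added here. Its statistics section names a stricter threshold of 0.01, which was run as an alternative. Applying the minimum to the mean of the arrays was a choice made here. A run of the procedure on simulated data gave the WT array the spread of the RECQL5 arrays. It therefore could not check the fit's assumption about the lone WT array. The members, the lists and the rule for named genes (all 42 genes, with array values for called genes, the 3 highest and 3 lowest changes and *RPO21*, *DST1* and *SPT5*, and every called gene of both comparison lists) were chosen with earlier results of these data known. *IKI3*, of a comparison list, was not matched. Alternatives changed the level filter, scaling, spread model, probe sets, thresholds and arrays. Promoter and protein sequences and coordinates were not analysed here.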

Additional observations from a re-analysis of the deposited data

How the results depend on the processing

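*FCP1* and *RPB8* were called in every alternative, and 0 of the 40 genes fell in any that kept the fold threshold. Not every alternative could undo a call. Removing the fold threshold can only add calls, and leaving out shared probe sets changed no array value of these genes. Every alternative used the same WT array. With no fold threshold, 15 of the 40 genes were called (10 higher and 5 lower), as were 2634 of all tested genes (1428 higher and 1206 lower). At an adjusted p of 0.01 with 1.5-fold, 667 of all tested genes were called, against 718. In all, 427 of 440 gene results kept their side of the threshold, and the other 13 were genes called on adjusted p alone. That count is no measure of stability. Changing the level filter, the spread model, the probe sets or the thresholds left every log2 change of these genes as it was. With the fold threshold kept, no uncalled gene could then become called. Cyclic loess lowered the median change of the general initiation factors from 0.00 to -0.040, of the CTD enzymes from -0.06 to -0.11 and of the Paf1 complex from -0.02 to -0.057. Without 1 RECQL5 replicate, the median of the Paf1 complex ranged from -0.058 to -0.0069. The cause was not tested. Changes close to 0 turned sign after median centring (*TAF14*, *RTF1* and *SPT6*) or cyclic loess (*TAF14* and *SPT6*), and without 1 RECQL5 replicate for 8 genes, none of them called. Over all genes, 55.15% of the calls were higher, and 48.84% after cyclic loess, which shifted the median change by -0.04. Without 1 replicate, 11 of the 40 genes (without RECQL5 replicate 2, which dropped *CDC73*, *RPB3*, *RPB7* and *TFB3*) to 16 (without replicate 1) passed the adjusted p alone. Leaving out replicate 1 added *RPB9* and *TOA1* to the genes that passed, and cyclic loess added *DST1* and *KIN28*. WT has 1 array and could not be left out. No paired analysis was possible because WT and RECQL5 share only replicate number 1.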

Other observations

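The RECQL5 arrays were not alike in these genes. RECQL5 3 gave the highest of the 3 values in 25 of the 40 genes (62.5%), RECQL5 2 in 10 and RECQL5 1 in 5 (12.5%). Over all tested genes the shares were 37.5%, 26.2% and 36.3%. The median difference from WT was 0.01, 0.04 and 0.07 for RECQL5 1, 2 and 3 over the 40 genes, and 0.03, 0.02 and 0.03 over all tested genes. The SD over the RECQL5 arrays ran from 0.0085 (*CDC73*) to 0.17 (*CTR9*), with a median of 0.050, against 0.061 over all tested genes.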
